A study of Caenorhabditis elegans with 12 samples.

Results

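Translation efficiency (TE), the amount of ribosome-protected mRNA relative to the amount of mRNA, was compared between 2 Caenorhabditis elegans mutants, ced-3(n717) and pmk-1(km25). Members were all libraries of both mutants, 8 of the 12 libraries of the series and 4 of its 6 worm samples, chosen by the genotype and library type in the labels. Each genotype had 2 worm samples, and each worm sample gave 1 library of total mRNA and 1 library of ribosome footprints (RPF, pieces of mRNA shielded from nuclease by the ribosome on them). Whole larvae were used: eggs were bleached from young adults, kept in M9 for 24 h to hatch without food, and the hatched worms then grew on OP50 bacteria for 18 h at 20 °C, when most wild type N2 (WT) worms were in the third larval stage. The 4 WT libraries, from the same treatment, were used for the estimate of spread and as a reference level. The design text describes the replicates as biological and independent but mentions no separate cultures, so each p-value measures the spread between these samples, which may be technical. The labels name no transgene, tissue-restricted driver or clone. In whole worms, fewer cells of a tissue and less RNA per cell cannot be told apart.

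CED-3 is the caspase that carries out programmed cell death in C. elegans, and it also cleaves proteins outside cell death. PMK-1 is the p38 MAP kinase of innate immunity; it is activated by the kinases NSY-1 and SEK-1 and controls, through the transcription factor ATF-7, secreted antimicrobial proteins made mainly in the intestine. When the RPF and mRNA of a gene change by the same factor, TE stays level; TE moves when mRNA is loaded with ribosomes more or less heavily, or when one of the measurements shifts without the other.

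TE was computed as a log2 difference, (RPF minus mRNA in ced-3) minus (RPF minus mRNA in pmk-1), so a positive value means more RPF per mRNA in ced-3. It was fitted with the worm sample as a block, by edgeR's quasi-likelihood test with Benjamini-Hochberg adjustment over all genes tested. Levels are counts scaled to a common library size (CPM), and the log2 RPF to mRNA ratio is also given for each worm sample. Total counts were 15471380 to 17150137 in the mRNA libraries and 6708805 to 10115985 in the RPF libraries, the lowest being RPF of ced-3 replicate 1. The limit that a count of 0 allows, 3 counts in a library, was 0.182 to 0.219 CPM for mRNA and 0.282 to 0.380 CPM for RPF, and covers counting error only. Defining markers of the intestine (14 of 14 markers), body wall muscle (20 of 20), hypodermis and seam (14 of 14) and germline (25 of 28) passed the filter on low counts.

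The RPF to mRNA ratio of some genes stood apart in a pair of worm samples. In ced-3 replicate 1, the median log2 RPF to mRNA ratio of the 80 cytosolic ribosomal protein genes was -1.96, while the other 5 worm samples lay between -1.30 and -0.85. In pmk-1 replicate 2, the genes that were almost silent in pmk-1 kept a larger share of their WT level in RPF than in mRNA. There were 20 genes whose mean mRNA level was more than 10 times lower in pmk-1 than in both ced-3 and WT, with at least 5 CPM in WT. Their median mRNA level in pmk-1 replicate 2 was 3.04% of that in WT and their median RPF level 7.26%, and RPF was the larger share in 19 of 20 genes. In pmk-1 replicate 1 the same medians were 1.79% and 1.92%, and RPF was the larger share in 10 of 20. This gene set was chosen after the values were seen and carries no test. It was picked by low mRNA in pmk-1 with no condition on RPF, which in itself favours a lower mRNA share. It includes catp-3, lys-2, irg-4 and clec-67. For irg-4 the RPF share was level, at 7.46% and 7.58% in pmk-1 replicates 1 and 2, while the mRNA share was 6.11% and 3.13%. For some values that changed when either worm sample was left out, the value without that worm sample stands beside them. Not all such values are given, so a value printed alone need not be stable.

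TE of few genes differed between the mutants. Of 13698 genes tested, 4 passed an adjusted p of 0.05 (0.0292%): the TE of C23H3.9 was higher in ced-3 (1 gene, 0.0073%), and that of catp-3, cpr-1 and dpy-4 was lower in ced-3 (3 genes, 0.0219%). DESeq2 called 22 genes, 5 higher (0.197%) and 17 lower (0.668%), among the 2544 to which it gave an adjusted p, and the fit of the mutant libraries alone called 18, 2 higher (0.0147%) and 16 lower (0.118%). An unadjusted p under 0.05 was reached by 796 genes (5.81%), where 684.9 is 5% of the genes tested. The worm samples of the mutants did not overlap in log2 RPF to mRNA ratio for 5471 genes (39.9%). Leaving out 1 worm sample at a time gave 0 calls without pmk-1 replicate 2 (675 genes at an unadjusted p under 0.05), 2 without pmk-1 replicate 1 or without either WT replicate, 5 when ced-3 replicate 1 was dropped and 81 when its other replicate was. The TE log2 difference was above 0 in 8178 genes (59.7%), its median was 0.06, and the median half-width of the 95% interval was 0.48. For 9299 genes (68.0%) the whole interval lay within 1 log2 unit of 0.

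mRNA and RPF themselves differed far more often, and mostly in step. By the same test on the mRNA libraries, 1247 of 13536 genes passed (9.21%), 909 higher (6.72%) and 338 lower (2.5%) in ced-3. In the RPF libraries 1088 of 12633 genes passed (8.61%), 764 higher (6.05%) and 324 lower (2.56%). Of the 12468 genes in both fits, 762 passed in both, always in the same direction; they were 63.1% of the 1207 mRNA calls and 70.9% of the 1075 RPF calls among these genes. Across these genes, which share worm samples and are not independent replicates, the log2 differences of mRNA and RPF correlated at Pearson's r 0.94 and Spearman's rho 0.86. In the 3347 genes above 50 CPM, the SD across genes was 0.79 for the mRNA difference, 0.89 for the RPF difference and 0.32 for the TE difference. With the replicate number as a block the counts were 564 in mRNA and 496 in RPF. The counts of mRNA and RPF calls changed with the libraries in the fit, for a cause that was not tested. With the mutant libraries alone both tests made 0 calls, with 3129 and 3223 genes at an unadjusted p under 0.05. Left-out libraries moved them from 3 (either WT replicate) to 1821 (ced-3 replicate 1) in mRNA, with 64 without pmk-1 replicate 1 and 377 when the other ced-3 replicate was dropped. In RPF they moved from 0 (either WT replicate or pmk-1 replicate 1; 2277 to 3331 genes at an unadjusted p under 0.05, and 1916 calls by DESeq2 on all libraries) to 1548 (ced-3 replicate 1), with 636 without ced-3 replicate 2 and 692 without pmk-1 replicate 2.

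**Figure D1:**
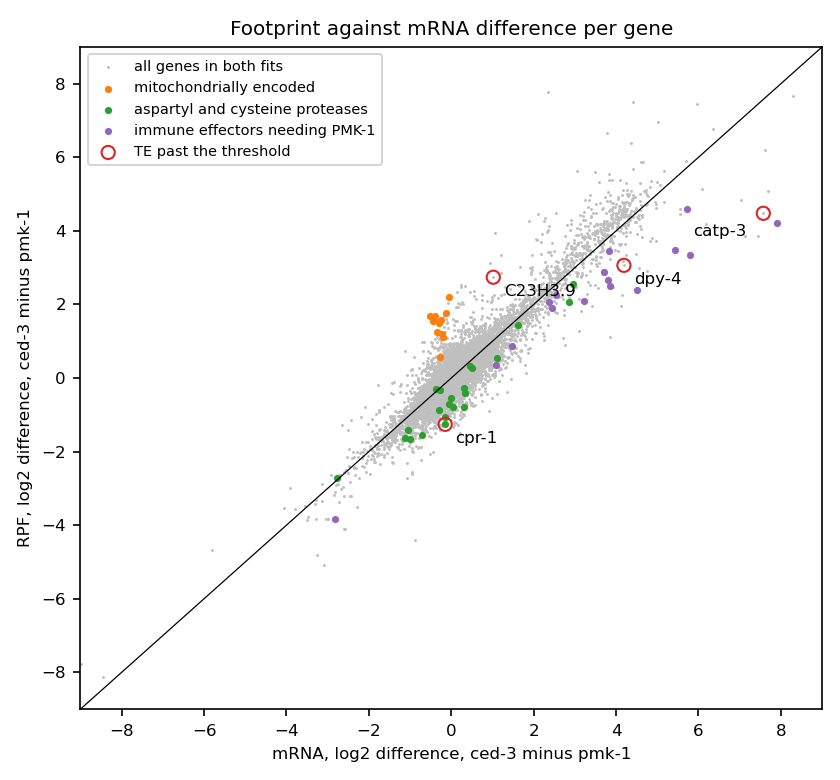
The log2 difference in RPF (vertical axis) against the log2 difference in mRNA (horizontal axis), ced-3 minus pmk-1, for each gene in both fits; the line marks equal differences, and genes below it had less RPF per mRNA in ced-3. Most genes lie along the line, the 4 circled genes passed the TE test, the mitochondrially encoded genes sit above it and the proteases and immune effectors mostly below.

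The targeted genes were examined first. Transcripts of pmk-1 (IV: 8148794-8151266, plus strand) were equally abundant in both mutants, at 39.0 and 42.7 CPM in ced-3 and 38.3 and 38.2 CPM in pmk-1. Its RPF was 39.8 and 45.1 CPM in ced-3 and 23.3 and 23.8 CPM in pmk-1, while WT had 44.4 and 49.2 CPM. Both pmk-1 RPF libraries were below all others. The TE log2 difference of 0.76 ± 0.16 (SE) did not pass (adjusted p = 0.163), whereas the RPF difference alone did (log2 0.85, adjusted p = 0.035). The file gives 1 count per gene, so it does not show which part of pmk-1 the remaining reads came from. For ced-3 itself (IV: 13198261-13204137, minus strand), mRNA was 5.58 and 6.69 CPM in ced-3 and 2.77 and 2.49 CPM in pmk-1, and RPF was 4.97 and 3.63 against 2.32 and 3.29 CPM. Its TE log2 difference was -0.63 ± 0.38 (adjusted p = 0.905), on 23 to 108 counts per mutant library, and the ratios of the worm samples overlapped. The transcript of ced-3 was thus present in the ced-3 mutant, whose label names an allele and gives no nature of the lesion.

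The largest TE difference among the calls was that of catp-3, which encodes a P-type ATPase of the cation-pump family (V: 8076012-8079916, plus strand). Its mRNA was 180.0 and 188 CPM in ced-3, 279 and 294 CPM in WT, and 0.073 and 1.85 CPM in pmk-1. Its RPF was 233 and 244 CPM in ced-3, 345 and 367 CPM in WT, and 0.10 and 21.2 CPM in pmk-1. Both assays were thus near 0 in pmk-1 and high elsewhere, except for the RPF of pmk-1 replicate 2. The TE log2 difference was -3.06 ± 0.26 (adjusted p = 5.2e-05). The log2 RPF to mRNA ratio was 0.37 and 0.38 in ced-3 and 0.16 and 3.41 in pmk-1, so the worm samples overlapped, and pmk-1 replicate 1 held 1 count in each assay. Without pmk-1 replicate 2 the log2 difference was -0.04, so the call rests on that worm sample. catp-3 is itself a member of the near-silent set described above, so that set is no separate evidence.

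cpr-1 encodes a cathepsin B-like cysteine protease of the intestine (V: 11975551-11976756, plus strand). Its mRNA was 538 and 435 CPM in ced-3, 631 and 497 CPM in pmk-1, and 362 and 343 CPM in WT. Its RPF was 307 and 241 CPM in ced-3, 747 and 563 CPM in pmk-1, and 465 and 413 CPM in WT. RPF was lowest in ced-3 although mRNA there was above WT. The ratios were -0.81 and -0.86 in ced-3 against 0.24 and 0.18 in pmk-1 and 0.36 and 0.27 in WT, without overlap. The TE log2 difference was -1.04 ± 0.16 (adjusted p = 0.045). The value stayed between -1.07 and -1.01 whichever worm sample was left out, but it passed only without ced-3 replicate 2.

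dpy-4 encodes a cuticle collagen that shapes the body (IV: 14985543-14986784, minus strand). Its mRNA was 374 and 876 CPM in ced-3 and 20.7 and 50.7 CPM in pmk-1, with 50.6 and 40.2 CPM in WT. Its RPF was 970 and 2824 CPM in ced-3, 149.6 and 305 CPM in pmk-1, and 287 and 278 CPM in WT. Both assays rose in ced-3, mRNA by a log2 of 4.19 (adjusted p = 0.030) and RPF by 3.06 (adjusted p = 0.044), so RPF rose less. The ratios were 1.37 and 1.69 in ced-3, 2.85 and 2.59 in pmk-1, and 2.50 and 2.79 in WT. The TE log2 difference was -1.19 ± 0.19 (adjusted p = 0.048). dpy-4 lies inside atln-2 on the other strand, and the use of strand in counting is not given in the sources used here, so reads of that pair cannot be told apart; atln-2 itself had a TE log2 difference of 0.01 ± 0.25. Like cpr-1, dpy-4 passed without ced-3 replicate 2 and with no other worm sample left out, and its value ranged from -1.34 to -1.03 over the 6 such fits.

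C23H3.9, a protein coding gene without a name (II: 71672-79266, minus strand), was the gene with higher TE in ced-3. Its mRNA was 16.98 and 25.3 CPM in ced-3, 11.9 and 9.90 CPM in pmk-1, and 6.44 and 6.78 CPM in WT. Its RPF was 30.5 and 50.5 CPM in ced-3, 7.07 and 5.07 CPM in pmk-1, and 4.68 and 3.88 CPM in WT. The footprints of ced-3 exceeded those of every other worm sample by more than their messages did. The ratios were 0.84 and 0.99 in ced-3, against -0.74 and -0.94 in pmk-1 and -0.45 and -0.78 in WT. The TE log2 difference was 1.78 ± 0.21 (adjusted p = 0.0021); DESeq2 gave 1.75 and no adjusted p. Without pmk-1 replicate 1 or 2 it did not pass, at adjusted p = 0.079 and 0.181. All 4 calls were lost in the fit without the worm sample as a block, which made 0 calls with 251 genes at an unadjusted p under 0.05.

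**Figure D2:**
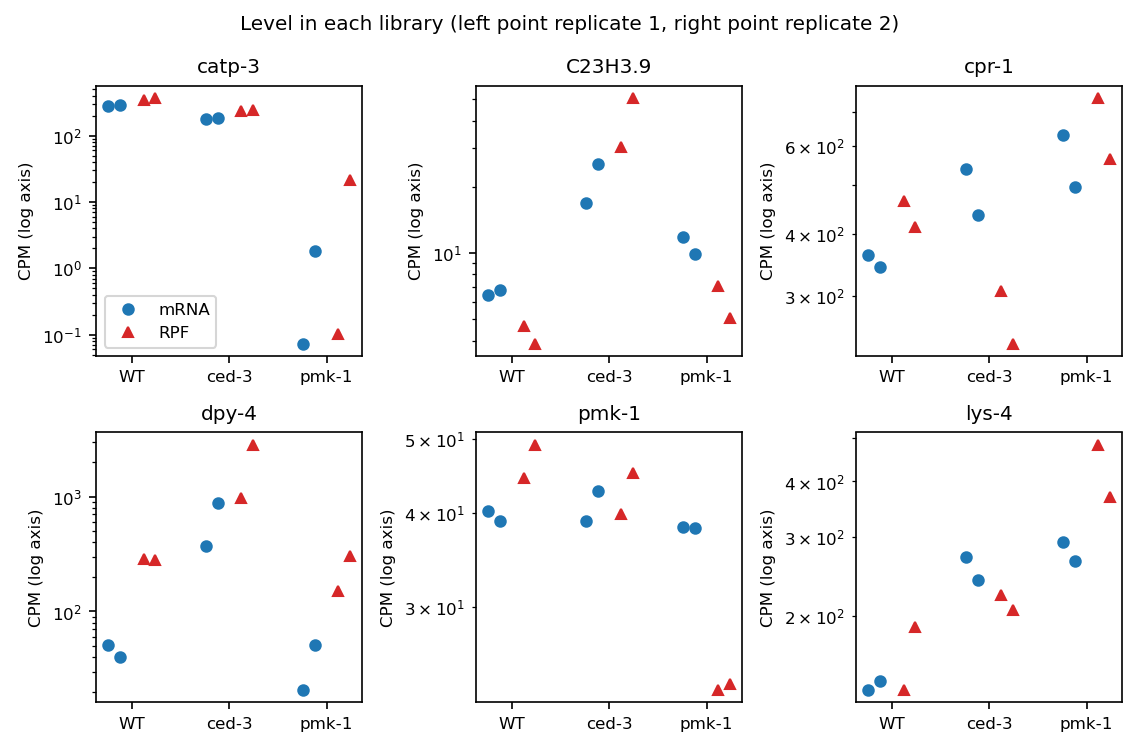
CPM in each library (log axes that differ between panels) for the 4 genes that passed the TE test and for pmk-1 and lys-4, by genotype; circles are mRNA, triangles are RPF, and the left and right points of a pair are replicates 1 and 2. RPF of catp-3 in pmk-1 is 0.10 in replicate 1 and 21.2 in replicate 2, while cpr-1 has its lowest RPF in ced-3 and C23H3.9 its highest.

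Next to the threshold, 3 genes with lower TE in ced-3 did not pass. pgp-6, a P-glycoprotein type transporter, had mRNA of 12.4 and 11.08 CPM in ced-3, 41.4 and 78.4 CPM in pmk-1, and 422 and 425 CPM in WT. Its RPF was 4.85 and 3.33 CPM in ced-3 and 30.3 and 62.9 CPM in pmk-1. It fell in ced-3 against pmk-1 in mRNA (log2 -2.29, adjusted p = 0.029) and further in RPF (log2 -3.51, adjusted p = 0.029), and its TE log2 difference was -1.16 ± 0.19 (adjusted p = 0.054). txt-4 and Y43F8B.3 followed at -1.45 ± 0.25 (adjusted p = 0.068) and -1.07 ± 0.19 (adjusted p = 0.127); both overlap another coding gene. Over the 13 alternatives, pgp-6 passed under 5, txt-4 under 4 and Y43F8B.3 under 3, and none of them passed with any worm sample left out. Among genes higher in ced-3 that did not pass, chs-2, a chitin synthase, had a TE log2 difference of 1.03 ± 0.21 (adjusted p = 0.156). Its mRNA rose by a log2 of 3.69 (adjusted p = 0.038) and its RPF by 4.62 (adjusted p = 0.034) in ced-3, with RPF of 36.8 and 113 CPM against 2.02 and 4.04 CPM. nuc-1, the DNase II that degrades the DNA of dead cells, had mRNA of 77.7 and 71.7 CPM in ced-3 against 43.1 and 45.9 CPM in pmk-1 and near-equal RPF of 44.4 and 43.4 against 47.7 and 41.4 CPM. Its mRNA rose in ced-3 (log2 0.81, adjusted p = 0.046), its RPF difference was -0.02, and its TE log2 difference of -0.76 ± 0.16 did not pass (adjusted p = 0.156).

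The digestive proteases were looked at as a family because cpr-1 and its relatives had been seen to be low. The aspartyl proteases (asp) and cathepsin-type cysteine proteases (cpr, cpl, cpz) break down proteins in the gut lumen and lysosomes; the list was thus chosen for its values, which are given as a description, with no test. Of its 22 tested members, 13 had an unadjusted p under 0.05 with lower TE in ced-3 and 0 with higher TE; the shares of all genes are 2.4% and 3.41%, and nothing is read from the count. The median TE log2 difference was -0.49, beside 0.06 for all genes. The median ratio was -0.45 and -0.33 in ced-3, 0.07 and 0.17 in pmk-1, and 0.31 and 0.21 in WT. The mRNA of the family differed little, with a median log2 difference of -0.03, against -0.62 in RPF. asp-1 is an abundant example: its mRNA was 1943 and 1489 CPM in ced-3 and 2126 and 1878 CPM in pmk-1, its RPF 1150 and 1063 against 2253 and 2374 CPM, and its TE log2 difference -0.83 ± 0.24 (adjusted p = 0.557). asp-6 had mRNA of 868 and 709 CPM in ced-3 and 680 and 655 CPM in pmk-1. Its RPF was 422 and 376 CPM in ced-3 against 623 and 762 CPM in pmk-1, and its TE log2 difference was -1.02 ± 0.20 (adjusted p = 0.146). cpr-9 had a TE log2 difference of -0.81 ± 0.17 (adjusted p = 0.180). DESeq2 called asp-6 and cpr-9, together with cpr-4 and asp-13. Among members of at least 5 CPM, cpr-3, at 0.12 ± 0.17, and asp-4 lay above 0.

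Secreted antimicrobial proteins of the gut lay on the same side. Of 34 lysozyme and saposin-like genes tested, which attack bacterial walls and membranes, 12 had an unadjusted p under 0.05 with lower TE in ced-3 and 1 with higher TE, where all genes had 2.4% and 3.41%; the median was -0.30. lys-4 had near-equal mRNA, 271 and 241 CPM in ced-3 and 293 and 265 CPM in pmk-1. Its RPF was 223 and 207 CPM in ced-3 against 483 and 369 CPM in pmk-1, with 137 and 189 CPM in WT, and its TE log2 difference was -0.85 ± 0.17 (adjusted p = 0.146). The pmk-1 worms held the highest lys-4 footprints of the 3 genotypes. spp-8, a saposin-like gene, had RPF of 95.8 and 73.2 CPM in ced-3 and 137 and 139.9 CPM in pmk-1 at mRNA of 124 and 87.9 against 115 and 108 CPM; its TE log2 difference was -0.63 ± 0.14 (adjusted p = 0.201). lys-1 rose in ced-3 in mRNA (log2 1.47, adjusted p = 0.018) and less in RPF (log2 0.86, adjusted p = 0.039), with a TE log2 difference of -0.54 ± 0.16 (adjusted p = 0.596). The C-type lectins, carbohydrate-binding proteins, had 16 of 102 tested genes at an unadjusted p under 0.05 with lower TE in ced-3 and 0 with higher TE, at a median of -0.21. Both medians kept their sign under all 13 alternatives. The 14 intestine markers had a median TE of -0.18, with 2 above the median of all genes, and medians of -0.12 in mRNA and -0.25 in RPF. They include asp-1 and cpr-6 of the protease list; the other 12 had a median of -0.15. Their part in the result was not tested.

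**Figure D3:**
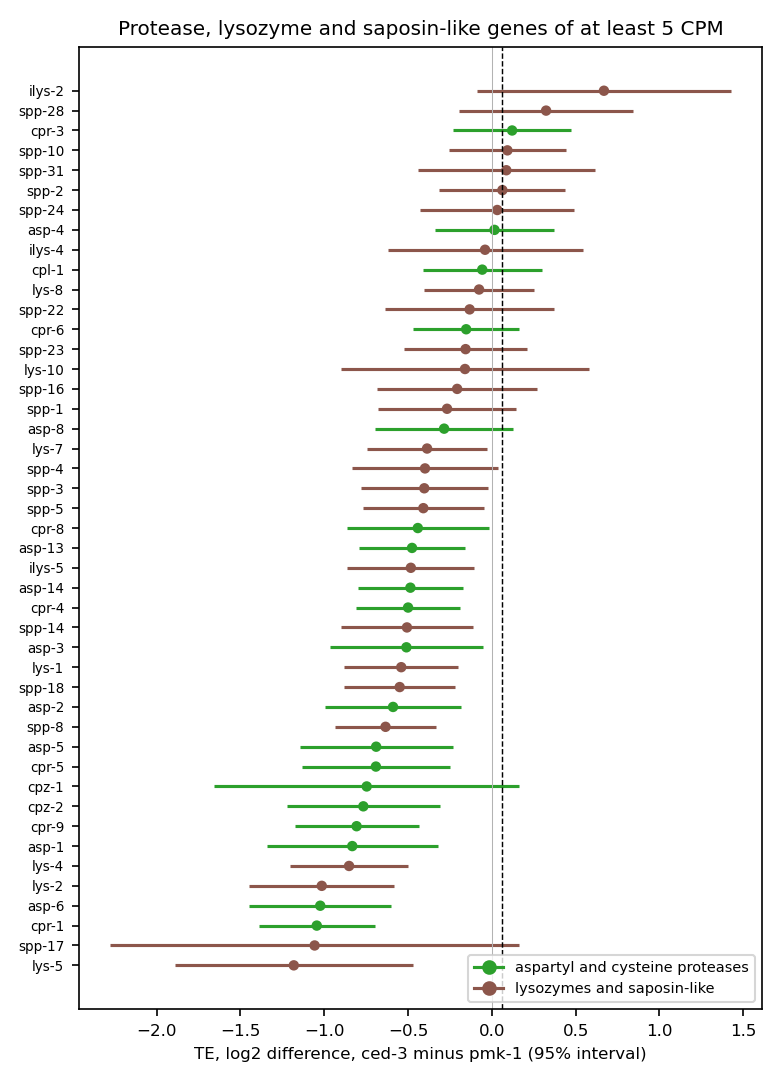
TE log2 difference, ced-3 minus pmk-1, with its 95% interval for each protease, lysozyme and saposin-like gene with a mean of at least 5 CPM; the dashed line is the median of all genes. Of 19 proteases, 17 lie below 0 and 13 intervals do. Of 26 lysozyme and saposin-like genes, 20 lie below 0 and 11 intervals do. Of all 13698 genes tested, 5520 were below 0, and 2.4% were lower at an unadjusted p under 0.05. The proteases were chosen for their values, and nothing is read from the counts.

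The 17 immune effectors known to need PMK-1 gave the lowest median of any list, -0.89, with 16 below 0 and 8 at an unadjusted p under 0.05 as lower in ced-3, where all genes had 2.4%. The list shares lys-1 and lys-2 with the lysozymes and was chosen with earlier results of these data known. lys-2, irg-4 and clec-67 are also in the near-silent set described above, which in itself favours a lower mRNA share. The list is thus no separate evidence from that set, and nothing is read from the count. In mRNA 15 of the 17 effectors passed as higher in ced-3 (6.72% of all genes), and in RPF 11 did (6.05%). clec-60 passed as lower in both assays. The median log2 differences of the list were 3.75 in mRNA and 2.49 in RPF. irg-4, an infection response gene, had mRNA of 199.7 and 149.7 CPM in ced-3 against 18.7 and 9.58 CPM in pmk-1. Its RPF was 260.0 and 179.6 CPM in ced-3 against 29.7 and 30.2 CPM in pmk-1, and its TE log2 difference was -0.82 ± 0.28 (adjusted p = 0.729). The lectin gene clec-67 had mRNA of 19.9 and 9.72 CPM in ced-3 and 0.29 and 0.26 CPM in pmk-1, with RPF of 22.9 and 10.8 CPM against 0.10 and 3.10 CPM. As for catp-3, the RPF of pmk-1 replicate 2 was the odd value. The other clec-67 values in pmk-1 were near or below the limit of 3 counts given above. The median ratio of the list was 0.27 and 0.26 in ced-3 and 0.24 and 1.34 in pmk-1. Without pmk-1 replicate 2 the median TE log2 difference was -0.35, and without pmk-1 replicate 1 it was -1.34. lys-2, another lysozyme low in pmk-1, behaved alike, with ratios of 0.17 and 0.11 in ced-3 and 0.67 and 1.46 in pmk-1 and a TE log2 difference of -1.01 ± 0.20 (adjusted p = 0.156), which was -0.54 without pmk-1 replicate 2 and -1.34 without replicate 1. sul-3, a sulfatase gene low in pmk-1, went the other way. Its RPF was 16.54 and 14.6 CPM in ced-3 against 0.40 and 0.66 CPM in pmk-1, and its mRNA 24.1 and 18.6 against 1.53 and 3.13 CPM. The sul-3 RPF in pmk-1 was near the limit of 3 counts, 0.303 and 0.282 CPM in replicates 1 and 2. Its TE log2 difference was 1.67 ± 0.41 (adjusted p = 0.374).

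The translation apparatus gave a median that depended on a single worm sample. Of 80 cytosolic ribosomal protein genes, 79 were below 0, with a median of -0.38, but 0 passed, 0 had an unadjusted p under 0.05, and the worm samples did not overlap for 7 (8.75%), where they did not for 39.9% of all genes. The median ratio was -1.96 in ced-3 replicate 1 and -0.85 in replicate 2, against -1.06 and -0.94 in pmk-1 and -1.30 and -0.88 in WT. The median turned to 0.18 when ced-3 replicate 1 was left out and was -0.96 when its other replicate was. rpl-3, a large-subunit protein gene, had RPF of 1227 and 1865 CPM in ced-3 and 2347 and 2528 CPM in pmk-1 at mRNA of 3738 and 3162 against 4900 and 4039 CPM. eef-1B.1, a subunit of the elongation factor exchange complex, had RPF of 367 and 506 CPM in ced-3 against 868 and 862 CPM in pmk-1. Its TE log2 difference was -0.69 ± 0.25 (adjusted p = 0.729) and ranged from -1.07 to -0.31 over the 13 alternatives. eef-1B.1, eef-1G and eef-1A.1 were the 3 of 15 elongation and termination factors with an unadjusted p under 0.05, all lower in ced-3 (2.4% of all genes). The medians of the other translation lists were nearer 0: -0.11 for 15 elongation and termination factors, -0.09 for 33 aminoacyl-tRNA synthetases, 0.04 for 39 initiation factors and -0.05 for 70 mitochondrial ribosomal proteins. Without ced-3 replicate 1, the elongation factors, synthetases and mitochondrial ribosomal proteins turned to 0.01, 0.05 and 0.04, as the cytosolic ribosomal proteins did. The 24 genes of the integrated stress and TOR control of translation had a median of 0.05.

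**Figure D4:**
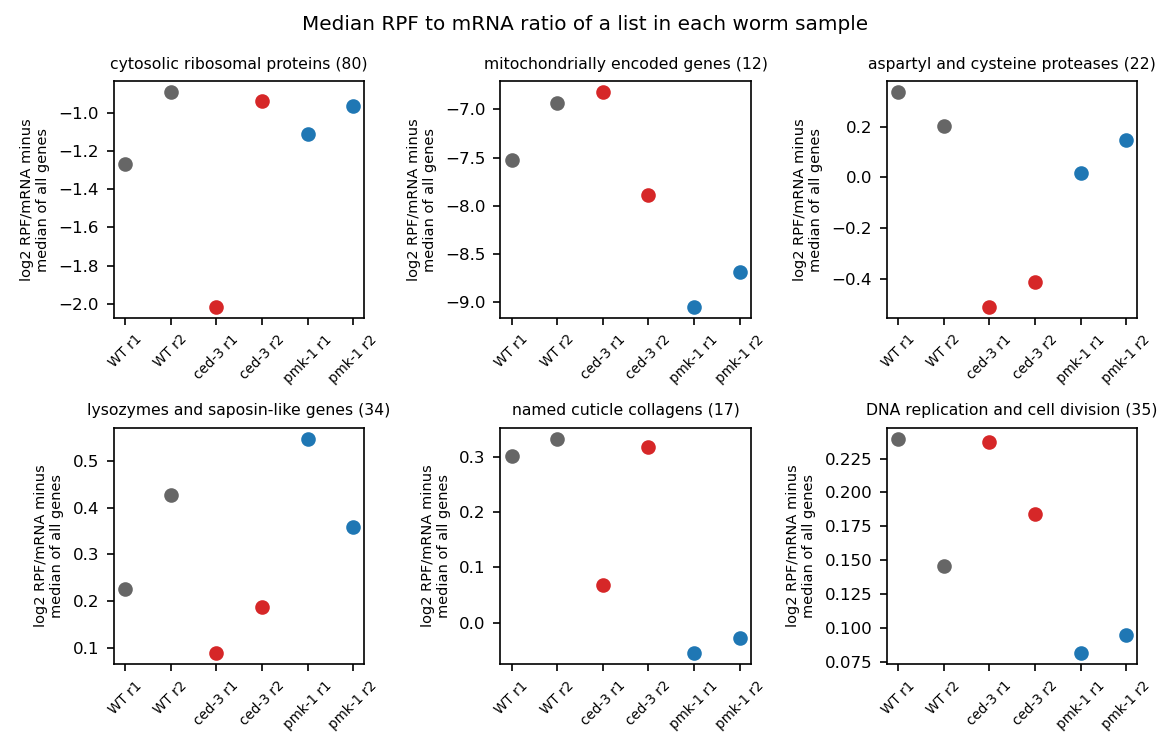
Median log2 RPF to mRNA ratio of 6 gene lists in each worm sample, minus the median of all genes in that worm sample; the number of genes is in brackets, and r1 and r2 are the replicates. Ribosomal proteins lie below 0 throughout and lowest in ced-3 r1, the proteases lie lower in both ced-3 worm samples than in the other 4, and the mitochondrially encoded genes are lowest in both pmk-1 worm samples.

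The mitochondrially encoded genes, whose messages are translated by mitochondrial ribosomes, had the highest median TE log2 difference, 1.82, with 12 of 12 above 0 (59.7% of all genes) and 10 at an unadjusted p under 0.05 as higher in ced-3 (3.41% of all genes). Their footprints were few against their messages: the median log2 ratio was -6.76 and -7.81 in ced-3, -9.002 and -8.67 in pmk-1, and -7.55 and -6.92 in WT. nduo-2, a subunit of NADH dehydrogenase, had mRNA of 507 and 408 CPM in ced-3 and 507 and 540 CPM in pmk-1. Its RPF was 3.36 and 1.71 CPM in ced-3 against 0.61 and 0.85 CPM in pmk-1, with 3.42 and 4.48 CPM in WT. These were only 27 and 17 counts in ced-3 and 6 and 9 counts in pmk-1. The pmk-1 worms had the lowest footprints of the 3 genotypes; the TE log2 difference was 1.94 ± 0.35 (adjusted p = 0.086). Of RNAs that are not translated, lfor-1, a non-coding RNA, had mRNA-library levels of 836 and 883 CPM in ced-3 and 592 and 841 CPM in pmk-1, RPF of 5.10 and 2.32 against 0.51 and 0.75 CPM, and a TE log2 difference of 2.23 ± 0.43 (adjusted p = 0.156). For the 177 non-coding genes of at least 5 CPM the median TE log2 difference was 0.55, and 147 were above 0. Their median ratio was -3.48 and -4.86 in ced-3 against -4.49 and -4.38 in pmk-1, so ced-3 replicate 1 alone was higher, and without it the median was -0.37. The 116 genes of any class whose WT ratio was under -5 had a median of 1.01, with 105 above 0, and ratios of -5.28 and -6.93 against -6.65 and -6.78. Their median was -0.02 without ced-3 replicate 1. For the mitochondrially encoded genes, the median ratios of the ced-3 and pmk-1 worm samples did not overlap. Nor did the ratios of srpr-2.1, an abundant non-coding RNA, at -7.42 and -8.64 in ced-3 against -10.6 and -9.73 in pmk-1. Among the genes with a WT ratio under -5, 95 were not protein coding. Of these, 24 had both ced-3 worm samples above both of pmk-1 (26% of all genes) and 2 had them below (13.9%). The part of untranslated RNA in the value of the mitochondrial genes was not tested. The median of the mitochondrially encoded genes ran from 1.28, without ced-3 replicate 1, to 2.201, without its other replicate.

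Genes of the cuticle and of growth lay slightly above the median of all genes. The named cuticle collagens, among them rol-6, dpy-13 and sqt-3, were much more abundant in ced-3. Of 17 tested in TE, 9 passed as higher in mRNA (6.72% of all genes) and 9 in RPF (6.05% of all genes). Their median log2 differences were 3.31 in mRNA, 3.06 in RPF and 0.24 in TE. sqt-3 had mRNA of 273 and 594 CPM in ced-3 and 35.7 and 36.8 CPM in pmk-1, RPF of 438 and 1142 against 45.2 and 55.5 CPM, and a TE log2 difference of 0.35 ± 0.20 (adjusted p = 0.884). dpy-4, at -1.19, was the member of this list that passed, as lower. Among 99 col family collagens, 73 were above 0 (59.7% of all genes) at a median of 0.18, and 8 had an unadjusted p under 0.05, all higher in ced-3 (3.41% of all genes). The astacin metalloproteases, which process cuticle proteins, had a median of 0.31, with 21 of 26 above 0. mlt-10, a moulting gene, had RPF of 48.99 and 126 CPM in ced-3 against 5.66 and 7.99 CPM in pmk-1, at mRNA of 29.04 and 50.9 against 5.77 and 5.94 CPM, and a TE log2 difference of 0.83 ± 0.24 (adjusted p = 0.585). Within ced-3 these genes differed strongly between the replicates in both assays, so the levels of the group rest on worm samples at unlike levels.

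Histone genes had a median of 0.25, with 35 of 39 above 0 (59.7% of all genes); the reads of near-identical histone copies cannot be assigned with certainty. DNA replication and cell division genes had a median of 0.14, with 33 of 35 above 0 and 4 at an unadjusted p under 0.05 as higher in ced-3 (3.41% of all genes). pcn-1, the sliding clamp of DNA replication, had RPF of 134 and 179 CPM in ced-3 against 84.8 and 97.0 CPM in pmk-1 at mRNA of 66.6 and 91.1 against 51.1 and 57.6 CPM, and a TE log2 difference of 0.25 ± 0.14 (adjusted p = 0.882). All 20 body wall muscle markers were above 0 and 17 of them above the median of all genes, at a median of 0.17, but 0 had an unadjusted p under 0.05. myo-3, a myosin heavy chain, had a TE log2 difference of 0.34 ± 0.21 (adjusted p = 0.905) from near-equal levels. With the mutant libraries alone, the median of all genes moved by -0.12 to -0.06, and the muscle, replication and collagen medians moved with it to 0.05, 0.02 and 0.11.

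**Figure D5:**
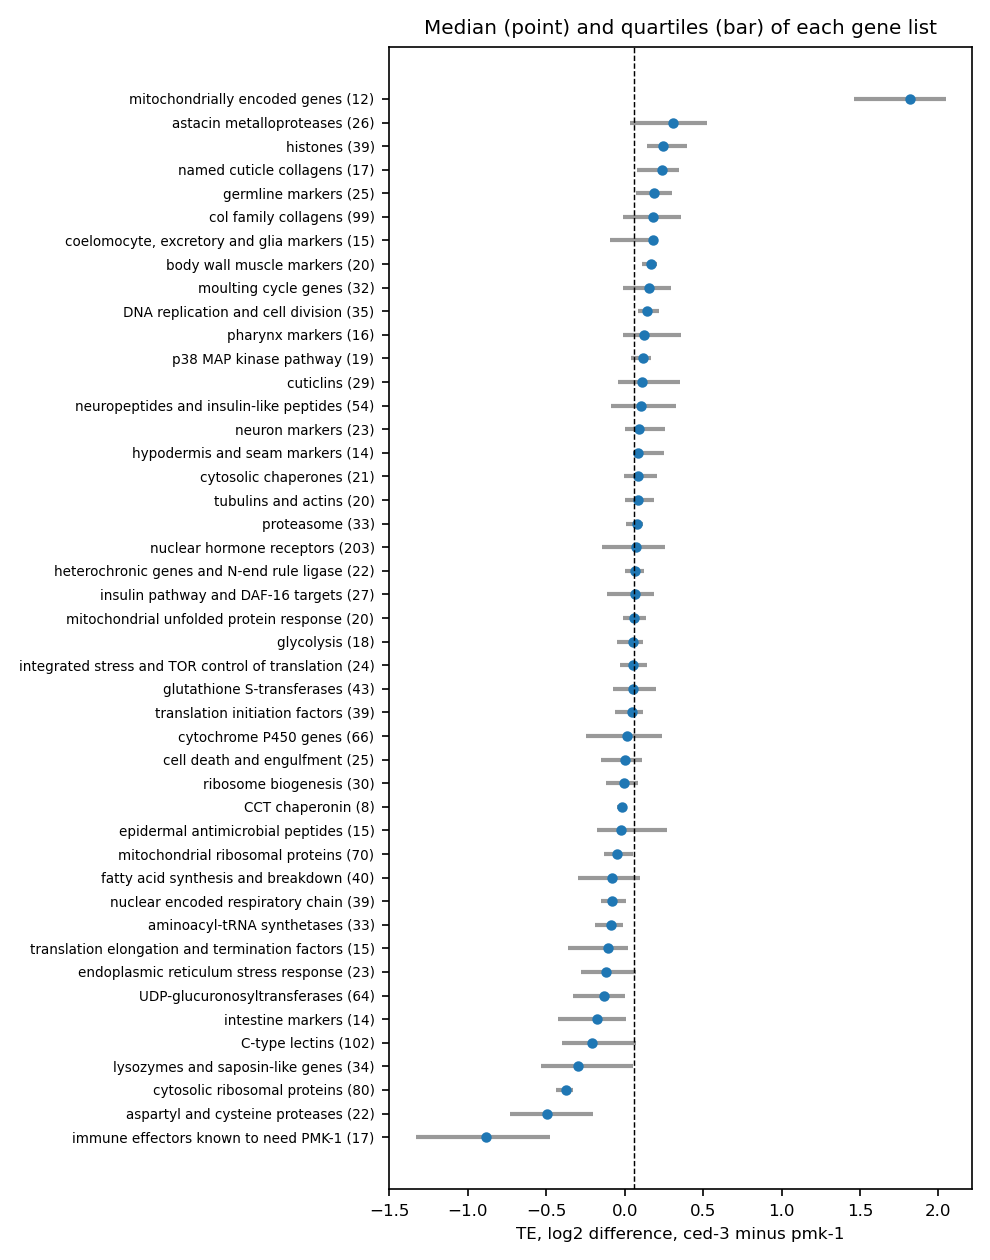
Median (point) and quartiles (bar) of the TE log2 difference, ced-3 minus pmk-1, for each gene list, with the number of genes tested in brackets; the dashed line is the median of all genes, 0.06. The mitochondrially encoded genes stand at 1.82 and the immune effectors known to need PMK-1 at -0.89, with most other lists within 0.3 of 0.

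The pathways of the mutated genes lay near the median of all genes. Of 19 genes of the p38 MAP kinase pathway, pmk-1 itself was the member with an unadjusted p under 0.05; the median was 0.12. nsy-1, tir-1 and sek-1 had TE log2 differences of 0.11 ± 0.14, 0.20 ± 0.17 and -0.09 ± 0.18. Of 25 cell death and engulfment genes, nuc-1 was lower and ced-4 higher at an unadjusted p under 0.05, and the median was 0.00. ced-4, whose product activates CED-3, had RPF of 24.0 and 22.9 CPM in ced-3 against 15.7 and 17.8 CPM in pmk-1 at mRNA of 15.8 and 15.8 against 15.6 and 15.1 CPM, and a TE log2 difference of 0.44 ± 0.18 (adjusted p = 0.789). The 22 heterochronic timing and N-end rule ligase genes, a group that holds the CED-3 substrate LIN-28, had a median of 0.07. lin-28 was at -0.09 ± 0.21 and lin-14 at 0.14 ± 0.17, and lin-42, the Period homologue, at -0.56 ± 0.26 (adjusted p = 0.854). The 27 insulin pathway genes and DAF-16 targets had a median of 0.06, and the 203 nuclear hormone receptors one of 0.07. Without ced-3 replicate 1 the median of the receptors was -0.006.

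TE followed the size of the difference in abundance only loosely. In nuclear protein coding genes of at least 5 CPM, split by the mean of the mRNA and RPF log2 differences, the median TE log2 difference was -0.07 in 868 genes between -1 and -0.5 and 0.06 in 6791 genes between -0.5 and 0.5. It was 0.27 in the 440 genes above 2, of which 350 were above 0. The split uses the values from which TE is formed and carries no test. Of 4 equal classes of coding length, the longest had a median of 0.10 and the others 0.03 to 0.05. Chromosomes differed little, from 0.04 on V to 0.09 on X.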

How the data were processed

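The authors deposited 1 table of whole-number read counts per gene for 12 libraries, not normalized, per the file headers and the values. Per the submitters' processing notes, Bowtie2, STAR and HTSeq were used with build WBcel235; versions, roles, annotation release, strand use and filters are not given in the sources used here. Of 46778 genes, 46603 matched the reference annotation of WBcel235 by identifier, which gave names and coordinates.

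Counts were fitted by edgeR (version 4.0.16, under R version 4.3.3) with TMM factors and the filterByExpr rule (minimum count 10, minimum total count 15), robust glmQLFit and glmQLFTest, Benjamini-Hochberg adjustment over all genes tested, threshold 0.05. The TE fit used 12 libraries, with 6 worm samples as a block and an RPF effect per genotype, leaving 3 residual degrees of freedom (limma 3.58.1 moderation across genes). The SE is the log2 difference divided by the square root of F; for 13 genes it could not be computed. mRNA and RPF were each fitted on 6 libraries without a block. CPM are TMM-scaled, and ratios per worm sample are differences of log2 CPM with a prior count of 2. DESeq2 1.42.0 was an alternative. The scripts were tested on simulated data.

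The labels state that both libraries of a replicate were made from 1 worm sample. Deviations of RPF and mRNA from the group mean correlated (Pearson's r over genes) at 0.62 for ced-3, 0.66 for pmk-1 and 0.17 for WT. Replicate numbers are not said to mark a batch shared between genotypes.

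Gene lists (45) and members were chosen with earlier results of these data known; the protease list was added after its values were seen. The text names all genes past the threshold and the targeted genes. A rule also picked genes by smallest p, up to 6 per direction where fewer passed (mean of at least 5 CPM in mutant mRNA or RPF). It further picked the member with the smallest p per list. The text names only some of these. Among those left out, none past the threshold, are nduo-3 (TE log2 difference 2.04), col-176 (1.40), nas-39 (1.20) and nhr-109 (-1.19). Other genes named (such as asp-6, clec-67, sul-3, sqt-3, rpl-3, pcn-1, ced-4, lin-28) were chosen after their values were seen. No sequence was used.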

Additional observations from a re-analysis of the deposited data

Results flagged for a closer look

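Each gene below had a TE log2 difference between the mutants that passed the test of the difference itself, by edgeR's quasi-likelihood test with Benjamini-Hochberg adjustment. catp-3 was at -3.06 (adjusted p = 5.2e-05), with a high RPF to mRNA ratio in 1 of 2 pmk-1 worm samples. C23H3.9 was at 1.78 (adjusted p = 0.0021), with both ced-3 worm samples above both pmk-1 worm samples. cpr-1 was at -1.04 (adjusted p = 0.045), and dpy-4 at -1.19 (adjusted p = 0.048), each with both ced-3 worm samples below both pmk-1 worm samples.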

How the results depend on the processing

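Against 4 TE calls, the fit with no replicate block made 0 (251 genes at an unadjusted p under 0.05), the mutant libraries alone 18, DESeq2 22, no filter on low counts 69, protein coding genes alone 12, and the fit without the robust option 2; RLE factors gave 6. The 4 calls were among the 18, 69, 12 and 6, and 3 of them were among the 22. Leaving out 1 worm sample gave 0 to 81. catp-3 went from -3.06 to -0.04 without pmk-1 replicate 2; the other 3 stayed at or beyond 1.01 log2 units, in the same direction, under every alternative. Against 1247 mRNA calls, the fit with a replicate block made 564, the mutant libraries alone 0, DESeq2 2079, and left-out replicates 3 to 1821. Against 1088 RPF calls, the replicate block gave 496, the mutant libraries alone 0, DESeq2 1916, no filter 1713, and left-out replicates 0 to 1548. For the lost calls the cause was not tested; with the mutants alone 2 residual degrees of freedom were left for TE. Of 714 pairs of a named gene and an alternative, 655 kept their direction and were not seen to change side of the threshold. Another 20 lost the threshold, 37 passed it and 2 turned in direction. Some pairs had no adjusted p. They were counted among the 655 where the gene had not passed in the main fit, and otherwise among the 20. cct-3, a chaperonin subunit at -0.13, turned to 0.14 without ced-3 replicate 1 and 0.02 without pmk-1 replicate 2, with -0.40 as its lowest value without 1 worm sample. With 2 worm samples per mutant, the median SE was 0.23, and the 95% interval held 0 for 12888 of 13698 genes.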
